A study of Mus musculus with 18 samples.

Results

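The JAK-STAT genes described here are 10 members of one signalling route, namely the receptor gene Osmr, the kinases Jak1 and Jak2, the transcription factors Stat3, Stat5a and Stat5b, and the feedback inhibitors Cish, Socs1, Socs2 and Socs3. Members were taken as every probe set whose only platform gene symbol is one of these, which gave 27 probe sets for the 10 genes, out of 45037 probe sets and 18193 named genes on the array. Of the 27 probe sets, 24 lay above the filter on dim signals, and each of the 10 genes kept at least one. The filter was the 25th percentile of probe set means, an intensity of 23.5. The 3 probe sets below it were 2 of Osmr and 1 of Stat5a.

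RNA came from mouse melanoma allografts of the cell line iNRAS-475, grown in the skin of nude mice, hosts that lack mature T cells. All hosts first drank doxycycline at 2 mg/ml, which keeps the NRAS transgene of this line switched on, and tumours reached 200 to 500 mm3 at 6 weeks. There were 6 tumours in each of 3 groups, called -NRAS (doxycycline withdrawn, 4 days), MEKi (AZD6244, also known as selumetinib, an inhibitor of the kinases MEK1 and MEK2, at 100 mg/kg for 4 days) and vehicle. The vehicle titles give no length of treatment. In the -NRAS group the withdrawal of doxycycline and the loss of NRAS come together and cannot be told apart. The labels do not name the promoter that drives the transgene, and all tumours descend from a single cell line, so the 6 tumours of a group are separate tumours but not separate melanomas. The series title sets loss of NRAS beside inhibition of MEK, and the 3 comparisons below are -NRAS minus vehicle, MEKi minus vehicle and -NRAS minus MEKi.

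In this pathway a cytokine joins receptor chains at the cell surface, the JAK kinases bound to those chains become active, and STAT proteins are phosphorylated and move to the nucleus. Among the genes that STATs switch on are Cish and the Socs genes, whose proteins bind receptors or JAKs and end the signal, so their transcripts are widely used as a readout of recent signalling. Many of these inhibitors are also reached by other pathways, and in tumours the route is active in cancer cells and in host cells alike. Tumour and host are both mouse here, so the arrays read their transcripts together. In such bulk samples, fewer cells of a type and less RNA per cell cannot be told apart.

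Array medians were close to one another, at 72.3 to 78.5, and any 2 tumours of a group had log2 values that correlated at 0.987 or more. Dusp6, a phosphatase gene that rises and falls with ERK activity, read 786 to 1667 in -NRAS and 1941 to 2807 in MEKi tumours, against 7412 to 9135 in vehicle tumours, with no overlap between any groups. All 8 genes of a list of MAPK output genes fell in all 3 comparisons by limma, with adjusted p from 1.4e-13 to 0.00159. As for the tumour label, Sox10, Mitf and Pmel were above the filter, while Tyr and Tyrp1, the pigment enzymes, were below it, with no tumour over 21.8. A pair of -NRAS tumours stood apart in marker levels. In -NRAS replicate 2 there was a summed level of 6 keratinocyte markers of 27565, where the other 17 tumours lay between 493 and 1064. In -NRAS replicate 6 the summed level of NK and lymphoid markers was 1227, where the other 17 tumours lay between 239 and 578, and Nkg7, a granule protein gene of cytotoxic lymphocytes, read 815. Results that turn on either tumour are also given without it. Marker lists of host cells also differed between the groups: against vehicle, the genes higher and lower in -NRAS tumours were 8 and 0 of 8 for endothelial cells, 3 and 0 of 4 for neutrophils, 4 and 1 of 5 for NK and lymphoid cells, 7 and 0 of 7 for skeletal muscle and 3 and 0 of 5 for adipocytes. In MEKi tumours the same counts were 1 and 1, 0 and 0, 0 and 0, 7 and 0, and 1 and 0. Over all genes, 31.8% were higher and 27.5% lower in -NRAS tumours, and 24.3% and 20.9% in MEKi tumours. Of 7 tested melanocytic markers, 6 were higher in -NRAS tumours and 2 in MEKi tumours, and no keratinocyte marker passed limma's test in either. The lists with 0 and 0 also had 0 genes at an unadjusted p under 0.05. Without -NRAS replicate 2, the markers higher and lower in -NRAS tumours were 1 and 0 of 6 for keratinocytes, and without either tumour the neutrophil counts were 2 and 0. Without replicate 6 the NK and lymphoid counts were 3 and 0.

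Promoter sequence is shown for the feedback inhibitors, since their transcripts are the readout of the route. Windows of 250 bases before to 50 after each start came from RefSeq (GRCm38.p6), and 9 of the 10 members had one or more windows, 11 in all, with none for Socs2. Both strands were searched for the STAT motif TTCNNNGAA, which is its own reverse complement, and for the paired interferon factor motif GAAANNGAAA with its reverse complement TTTCNNTTTC. The STAT motif was found in 2 of the 11 windows (Cish and Socs3) and in 8.3% of all 32851 windows, and the paired motif in 1 of 11 (Socs1) and in 3.44% of all. Positions count from 1 at the first transcribed base, and bases before it are negative. Cish has STAT matches at bases 1 to 9 and 12 to 20 (chr9:107296409-107296678, plus strand). Socs3 has one at -154 to -146 (chr11:117969501-117969530, minus strand, of which 30 bases are shown, since this window lies within the annotated span of the gene). Socs1 has overlapping paired matches at -83 to -74 and -77 to -68 (chr16:10785537-10785786, minus strand). Each sequence runs 5′ to 3′ in its gene's direction, and capitals mark the motif matches, which are descriptions of the letters and not sites shown to be bound.
Cish: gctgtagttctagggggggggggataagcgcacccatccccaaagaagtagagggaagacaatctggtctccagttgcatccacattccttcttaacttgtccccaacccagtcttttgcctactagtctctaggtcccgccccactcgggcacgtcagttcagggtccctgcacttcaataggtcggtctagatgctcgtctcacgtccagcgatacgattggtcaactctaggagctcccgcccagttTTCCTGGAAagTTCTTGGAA
Socs3: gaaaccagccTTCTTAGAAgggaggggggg
Socs1: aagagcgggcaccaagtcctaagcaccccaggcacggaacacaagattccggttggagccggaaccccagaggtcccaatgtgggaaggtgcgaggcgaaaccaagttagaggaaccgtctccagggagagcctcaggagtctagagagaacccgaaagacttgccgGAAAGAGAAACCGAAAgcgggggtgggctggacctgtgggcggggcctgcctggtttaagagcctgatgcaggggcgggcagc

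After NRAS loss, genes of the receptor, a kinase and the STATs rose, while 2 of the 4 feedback inhibitors fell. The rise of Stat3 passed only narrowly, and that of Stat5b rested on its brighter probe set alone. Between -NRAS and vehicle tumours, Osmr, Jak1, Stat3, Stat5a and Stat5b rose and Socs1 and Socs2 fell. That is 7 of 10 members, where 59.3% of all 15005 genes changed (31.8% higher, 27.5% lower). In MEKi against vehicle tumours, Stat5a and Stat5b rose, and Osmr, Cish, Socs1 and Socs2 fell, 6 of 10 where 45.2% of all genes changed (24.3% higher, 20.9% lower). In the direct comparison of -NRAS with MEKi tumours, Osmr, Jak1, Stat3, Stat5b and Cish were higher and Socs2 was lower, 6 of 10 where 47.0% of all genes changed (24.3% higher, 22.7% lower). All 3 shares lie within 2 genes of what the background would give for 10 genes, so what the members show is which ones moved and which way, not that more of them moved. Their median log2 change was 0.20, -0.15 and 0.18 in the 3 comparisons, beside 0.0036, 0.0089 and -0.0090 over all genes tested. These calls come from limma on log2(intensity + 16), fitted to all 18 tumours, with Benjamini-Hochberg adjusted p under 0.05 over all genes.

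**Figure D1:**
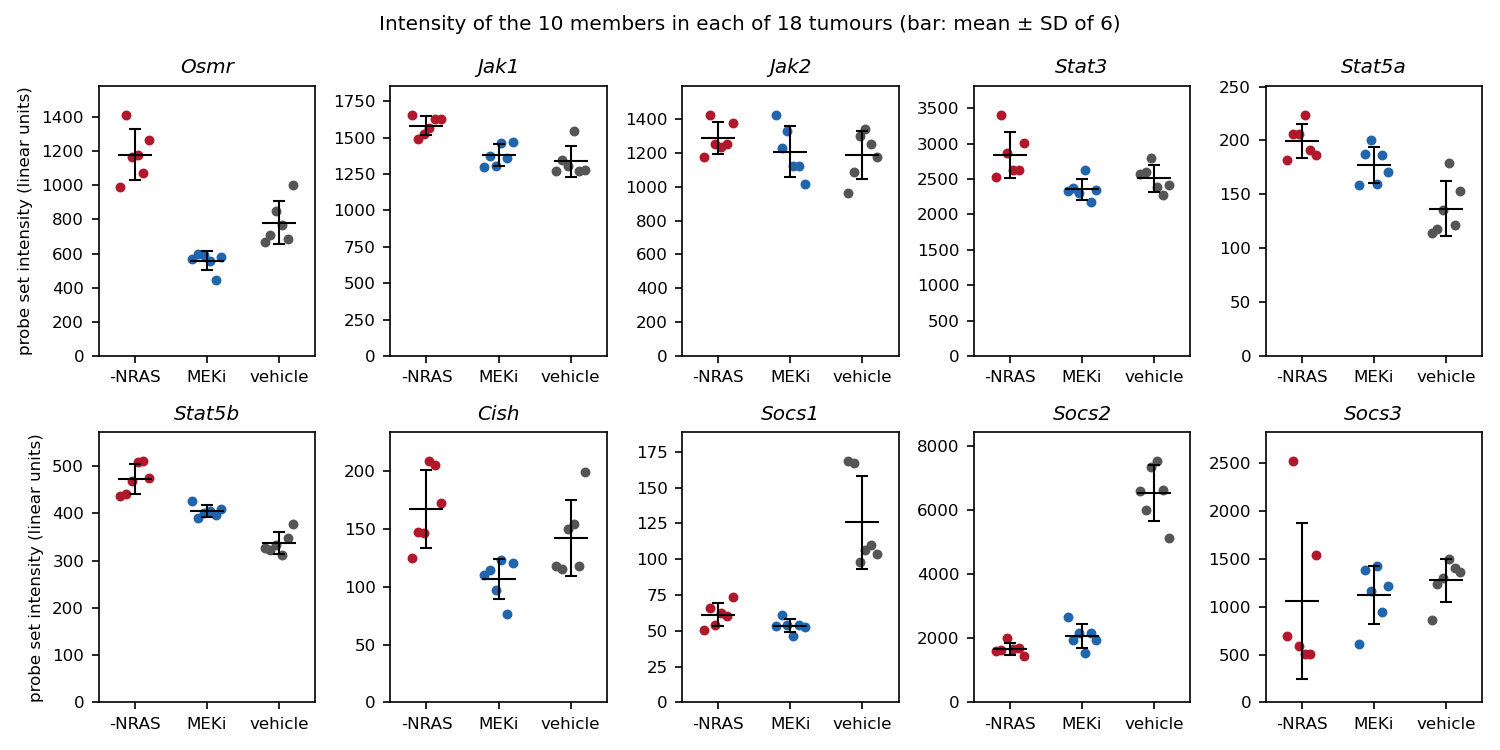
Probe set intensity (linear units, each axis from 0) of the 10 members in -NRAS, MEKi and vehicle tumours, 6 points a group, with bars for the mean and SD. Socs2 and Socs1 are low in both -NRAS and MEKi tumours, Osmr is high in -NRAS and low in MEKi tumours, and 2 of the 6 -NRAS points of Socs3 lie above every vehicle point while the other 4 lie below every one; levels are comparable between groups of a gene and not between genes.

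Groups did not overlap at all for 4 members in each comparison. In -NRAS against vehicle tumours these were Stat5a, Stat5b, Socs1 and Socs2, where 39.2% of all genes had no overlap. In MEKi against vehicle tumours they were Osmr, Stat5b, Socs1 and Socs2, against 25.5% of all genes. In -NRAS against MEKi tumours they were Osmr, Jak1, Stat5b and Cish, against 28.3%. Values below give the lowest, median and highest intensity of the 6 tumours of a group, changes are log2 differences ± SE, and adjusted p is limma's.

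Osmr encodes the receptor chain for oncostatin M, which pairs with the shared chain gp130. It read 988, 1171 and 1413 in -NRAS tumours, 447, 572 and 599 in MEKi tumours, and 668, 739 and 1002 in vehicle tumours. The -NRAS tumours were the highest and the MEKi tumours the lowest, and only the lowest -NRAS tumour reached into the vehicle range. Osmr rose by 0.59 ± 0.10 in -NRAS tumours (adjusted p = 5.07e-05, limma) and fell by 0.47 ± 0.10 in MEKi tumours (adjusted p = 0.000876, limma), both against vehicle. The direct difference, -NRAS minus MEKi, was 1.06 ± 0.10 (adjusted p = 7.56e-08, limma). Of the 10 members it was the only one whose changes against vehicle passed the test in opposite directions. All 3 calls held in every alternative run, but with the 2 Osmr probe sets below the filter averaged in, the changes shrank to 0.21, -0.20 and 0.41. Markers of macrophages had the same order of groups, with 10 of 10 higher in -NRAS than in vehicle tumours and 8 of 10 lower in MEKi than in vehicle tumours. The summed macrophage level was 62295 to 77625 in -NRAS tumours, 10981 to 26043 in MEKi tumours and 23221 to 38156 in vehicle tumours, and its part in the Osmr result was not tested.

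Jak1 encodes the kinase used by the gp130 receptors and by the interferon receptors. It read 1492, 1597 and 1656 in -NRAS tumours, 1299, 1368 and 1473 in MEKi tumours, and 1271, 1293 and 1545 in vehicle tumours. All -NRAS tumours lay above all MEKi tumours, and above all vehicle tumours but replicate 4. Jak1 rose by 0.24 ± 0.053 in -NRAS tumours against vehicle (adjusted p = 0.00061, limma) and by 0.20 ± 0.053 against MEKi (adjusted p = 0.00494, limma). In MEKi minus vehicle the change was 0.047, with a 95% interval of -0.065 to 0.16 (adjusted p = 0.516, limma). A second Jak1 probe set, 1433803_at, was also higher in -NRAS tumours, by 0.35 ± 0.062. The third, 1433804_at, varied widely within groups and had a change of -0.0088 ± 0.21 there, so the calls above rest on 2 of the 3 probe sets.

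Jak2, the kinase of the growth hormone, prolactin and erythropoietin receptors, passed no test on its brighter probe set. Its values were 1177, 1255 and 1423 in -NRAS tumours, 1017, 1176 and 1425 in MEKi tumours, and 963, 1212 and 1341 in vehicle tumours. The groups overlapped almost wholly. The change in -NRAS minus vehicle was 0.12, with a 95% interval of -0.060 to 0.30 (adjusted p = 0.237, limma), and in MEKi minus vehicle 0.026, with an interval of -0.16 to 0.21. The dimmer probe set 1421065_at had the other sign, at -0.20 ± 0.095 in -NRAS minus vehicle (adjusted p = 0.0837, limma over all probe sets) and -0.26 ± 0.095 in MEKi minus vehicle (adjusted p = 0.0374). No direction is given for Jak2 for that reason.

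Stat3 encodes the main STAT of gp130 signalling and has its gene beside Stat5a and Stat5b on chromosome 11. It read 2530, 2751 and 3408 in -NRAS tumours, 2174, 2340 and 2623 in MEKi tumours, and 2275, 2489 and 2806 in vehicle tumours. The ranges of all groups overlapped. Stat3 was higher in -NRAS than in MEKi tumours by 0.26 ± 0.071 (adjusted p = 0.00442, limma). Against vehicle the rise of 0.18 ± 0.071 in -NRAS tumours passed narrowly (adjusted p = 0.0385, limma), and it was lost in 9 of 25 alternatives, among them those without -NRAS replicate 2, 3 or 6 or without vehicle replicate 4, 5 or 6. Over those 25, adjusted p ran from 9.55e-06 to 0.106. The low end came with the most variable probe set, which is the dimmer 1459961_a_at. With single tumours left out the change lay between 0.12 and 0.21, and it was 0.12 without -NRAS replicate 2. Of the other Stat3 probe sets, 1460700_at rose by 0.20 ± 0.062 in -NRAS tumours, and 1459961_a_at rose by 0.49 ± 0.072 there and by 0.38 ± 0.072 in MEKi tumours, both against vehicle. The fourth, 1424272_at, was at -0.036 ± 0.062 and -0.0063 ± 0.062.

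Stat5a and Stat5b, which encode the STATs of growth hormone, prolactin and interleukin-2 type receptors, were highest in -NRAS tumours and lowest in vehicle tumours. Stat5b read 436, 472 and 510 in -NRAS tumours, 390, 403 and 426 in MEKi tumours, and 313, 330 and 378 in vehicle tumours. No value of one group fell within the range of another. Stat5b rose by 0.47 ± 0.052 in -NRAS tumours (adjusted p = 2.57e-07, limma) and by 0.26 ± 0.052 in MEKi tumours (adjusted p = 0.00051, limma) against vehicle, and the -NRAS minus MEKi difference was 0.22 ± 0.052 (adjusted p = 0.00195). Its dimmer probe set 1422102_a_at showed 0.019 ± 0.079 and 0.065 ± 0.079 against vehicle, and -0.046 ± 0.079 in -NRAS minus MEKi. It passed no test, so the Stat5b result rests on 1 probe set. Stat5a read 182, 199 and 224 in -NRAS tumours, 159, 179 and 200 in MEKi tumours, and 114, 128 and 179 in vehicle tumours. The -NRAS tumours all lay above the vehicle tumours, and the MEKi tumours overlapped both other groups. Stat5a rose by 0.51 ± 0.090 in -NRAS tumours (adjusted p = 7.32e-05, limma) and by 0.35 ± 0.090 in MEKi tumours (adjusted p = 0.0035, limma). The -NRAS minus MEKi difference was 0.16, with a 95% interval of -0.030 to 0.35.

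**Figure D2:**
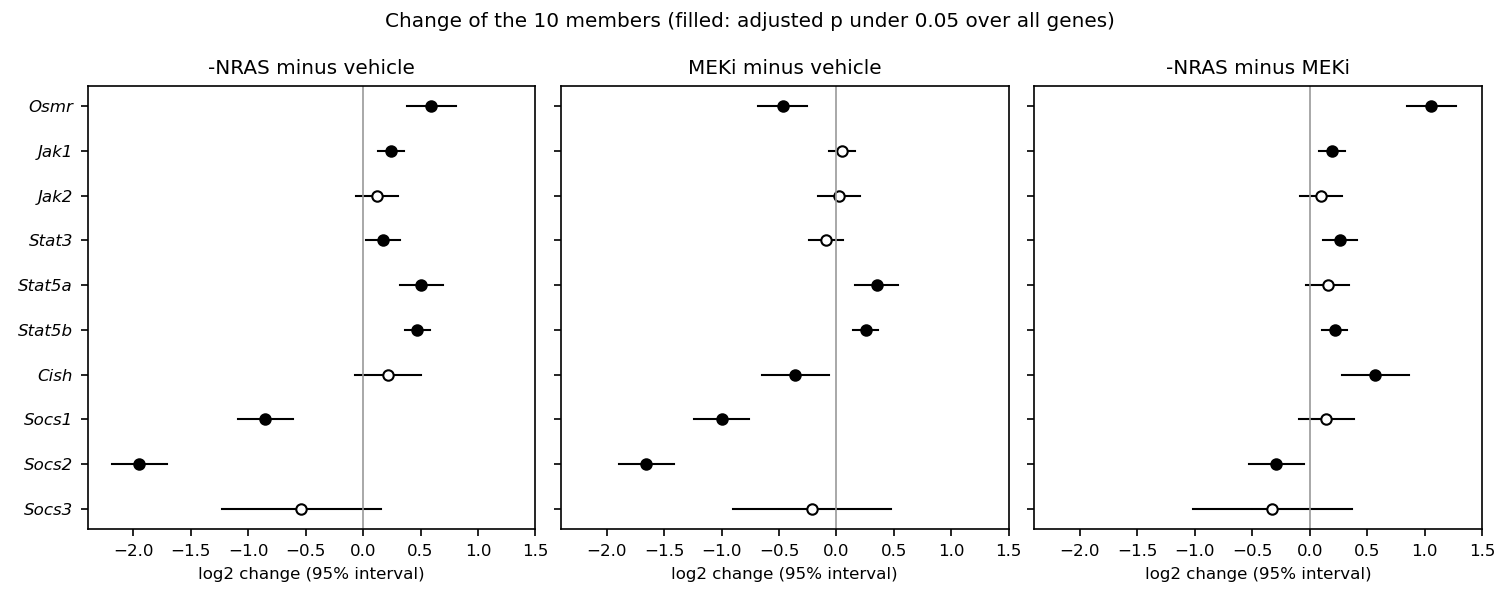
Log2 change of the 10 members with 95% intervals in -NRAS minus vehicle, MEKi minus vehicle and -NRAS minus MEKi; filled points have an adjusted p under 0.05 over all genes. Socs2 has the lowest values in the first 2 panels (-1.95 and -1.66), Osmr lies right of zero in the first and left of it in the second, and the intervals of Socs3 are the widest in all 3.

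Cish encodes a feedback inhibitor of STAT5 signalling and carries the paired STAT matches shown above. It read 125, 160 and 208 in -NRAS tumours, 76.2, 112 and 123 in MEKi tumours, and 115, 134 and 199 in vehicle tumours. Every -NRAS tumour exceeded every MEKi tumour, though the highest MEKi tumour came within a few units of the lowest -NRAS one. The -NRAS minus MEKi difference was 0.57 ± 0.14 (adjusted p = 0.00198, limma), and it passed in every alternative. Against vehicle, Cish fell by 0.36 ± 0.14 in MEKi tumours (adjusted p = 0.0419, limma). That call was lost in 8 of 25 alternatives, among them those without MEKi replicate 1, 3 or 5 or vehicle replicate 3, 4 or 6, with adjusted p from 0.0268 to 0.11. Without vehicle replicate 6, the highest of its group, the MEKi change was -0.26 and the -NRAS change was 0.31 (adjusted p = 0.0477, limma). With all tumours, -NRAS minus vehicle was 0.22, with a 95% interval of -0.073 to 0.50 and adjusted p from 0.0477 to 0.367 over the alternatives.

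Socs1 encodes an inhibitor that binds JAKs directly and is best known as a brake on interferon signalling. It read 50.7, 61.4 and 73.9 in -NRAS tumours, 46.3, 53.9 and 61.1 in MEKi tumours, and 98.2, 108 and 168 in vehicle tumours. All 12 tumours of the -NRAS and MEKi groups lay below all 6 vehicle tumours. Within vehicle, replicates 1 and 2 were at 168 and 167 and the other 4 between 98.2 and 110. Socs1 fell by 0.85 ± 0.11 in -NRAS tumours (adjusted p = 3.01e-06, limma) and by 1.00 ± 0.11 in MEKi tumours (adjusted p = 1.02e-06, limma). Both falls passed in every alternative that tested the gene. The difference between -NRAS and MEKi was 0.15, with a 95% interval of -0.093 to 0.39. The mean of this probe set lies at the 49.5th percentile of all probe sets, so a filter at the 50th percentile leaves it out.

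Socs2, an inhibitor of growth hormone receptor signalling, showed the largest change of the 10 members against vehicle in both groups. It read 1448, 1648 and 2005 in -NRAS tumours, 1530, 2065 and 2673 in MEKi tumours, and 5126, 6621 and 7531 in vehicle tumours. The highest of the 12 tumours without NRAS or with MEK inhibitor lay far below the lowest vehicle tumour. Socs2 fell by 1.95 ± 0.11 in -NRAS tumours (adjusted p = 5.37e-11, limma) and by 1.66 ± 0.11 in MEKi tumours (adjusted p = 1.76e-09, limma). The direct difference, -NRAS minus MEKi, was -0.29 ± 0.11 (adjusted p = 0.0418, limma). That small difference was lost in 11 of 25 alternatives, including those without any one of -NRAS replicates 1, 2, 4, 5 or 6 or MEKi replicates 1, 2, 3 or 5, with adjusted p from 0.00606 to 0.121. Without MEKi replicate 1, the highest MEKi tumour, it was -0.22.

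All 6 Socs2 probe sets fell against vehicle in both groups. The size differed between them, from -1.95 for 1449109_at to -0.21 for 1441476_at in -NRAS tumours and from -1.66 to -0.24 in MEKi tumours. The 3 with the largest falls were 1449109_at, 1418507_s_at and 1446085_at, at -1.95, -1.90 and -1.61 in -NRAS tumours. A mean over all 6 gives -1.15 and -0.98, with both calls kept.

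**Figure D3:**
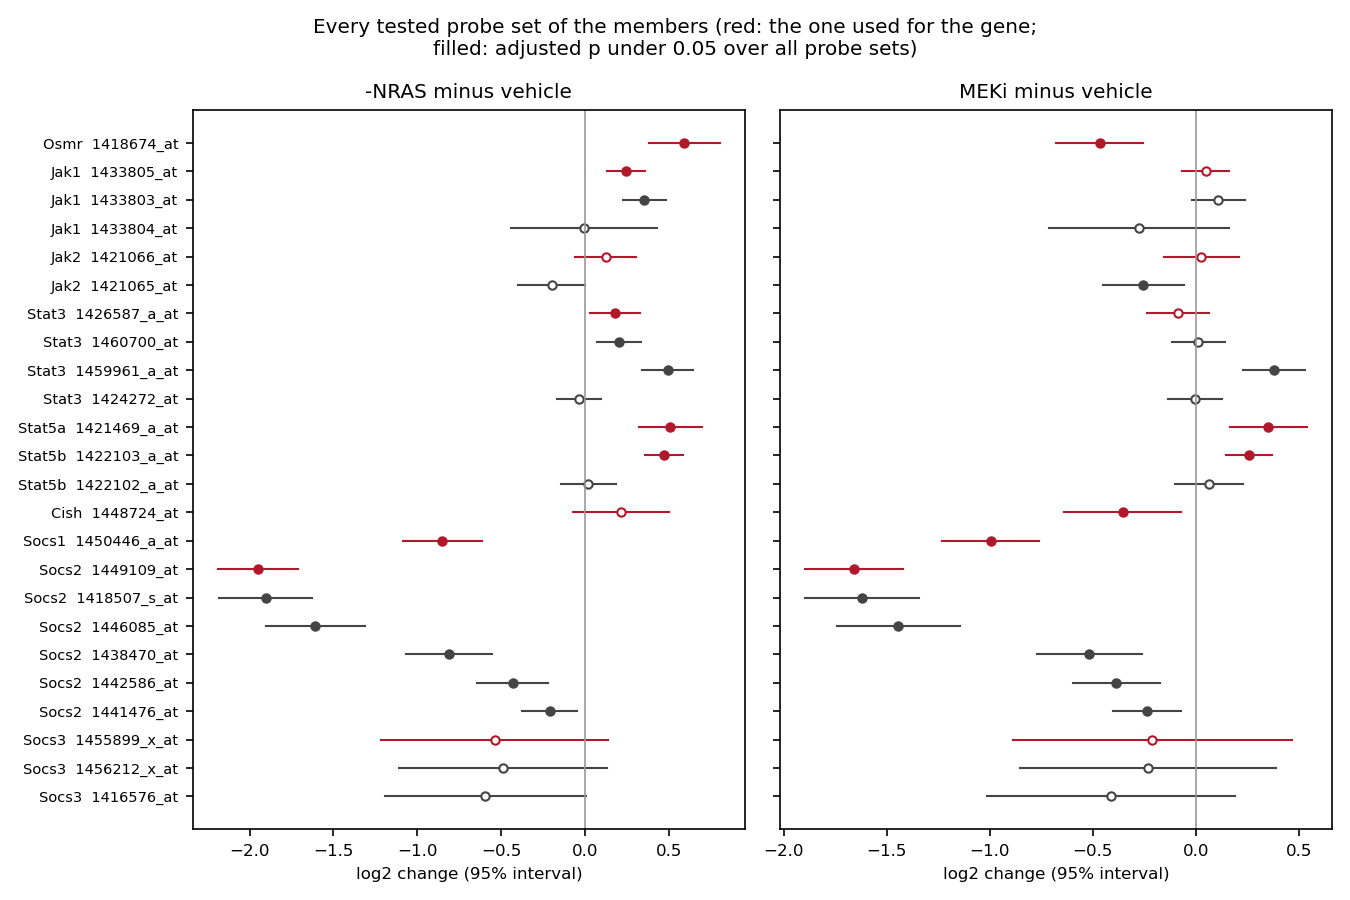
Log2 change with 95% interval of the 24 tested member probe sets in -NRAS minus vehicle (left) and MEKi minus vehicle (right); red marks the probe set used for the gene, filled points have an adjusted p under 0.05 over all probe sets. The 6 Socs2 probe sets all lie left of zero in both panels, while probe sets of Jak1, Jak2, Stat3 and Stat5b differ among themselves.

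Over the 24 tested probe sets, 15 changed in -NRAS minus vehicle (8 up and 7 down), where 54.7% of all 33777 probe sets did. In MEKi minus vehicle 13 changed (3 up and 10 down) against 40.7% of all. In -NRAS minus MEKi 8 changed (7 up and 1 down) against 40.5%. Socs2 alone gives 6 of the 7 and 6 of the 10 that fell. Probe sets of a gene can read the same transcripts, though some here differed from one another, so these counts are not counts of independent events.

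Socs3 encodes the inhibitor that acts on gp130 and is a classical STAT3 target. In the -NRAS group it read 691, 2522, 590, 506, 502 and 1541 in replicates 1 to 6. It had 613, 1191 and 1425 (lowest, median, highest) in MEKi tumours and 858, 1332 and 1495 in vehicle tumours. In the -NRAS group 4 tumours lay below every vehicle tumour and 2 lay above every vehicle tumour, with none between. The coefficient of variation was 77.2% in -NRAS tumours, 26.9% in MEKi tumours and 17.5% in vehicle tumours. The mean change, -NRAS minus vehicle, was -0.54 ± 0.33, with a 95% interval of -1.23 to 0.15 (adjusted p = 0.17, limma). In MEKi minus vehicle it was -0.21, with an interval of -0.90 to 0.48.

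The same 2 tumours, -NRAS replicates 2 and 6, were high on all 3 Socs3 probe sets. On 1456212_x_at they read 1229 and 861, where the other 4 -NRAS tumours read 294 to 345 and the vehicle tumours 486 to 796. On 1416576_at they read 858 and 488, where the other 4 read 183 to 310 and the vehicle tumours 411 to 642. Without replicate 2 the change was -0.84 ± 0.26 and passed the test (adjusted p = 0.00874, limma), where adjusted p over all 25 alternatives ran from 0.00874 to 0.34. Without replicate 6 it was -0.70 ± 0.33 (adjusted p = 0.0768, limma). The call therefore depends on replicate 2. Replicate 2 also had the highest summed level of neutrophil markers, at 14341 where the other 5 -NRAS tumours had 1054 to 5401. It is also the tumour with high keratinocyte markers. Most of that neutrophil sum came from S100a8, at 8417, and S100a9, at 5626. Mmp8 and Cxcr2 were also highest in replicate 2 among -NRAS tumours, but only at 50.3 and 20.2. Csf3r was highest in replicate 6, at 277. Replicate 6 had a neutrophil sum of 4482 and a keratinocyte sum of 744. Its NK and lymphoid sum was 1227, where replicate 2 had 327 and the other 4 -NRAS tumours had 286 to 578. What part these cells have in the Socs3 values was not tested.

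**Figure D4:**
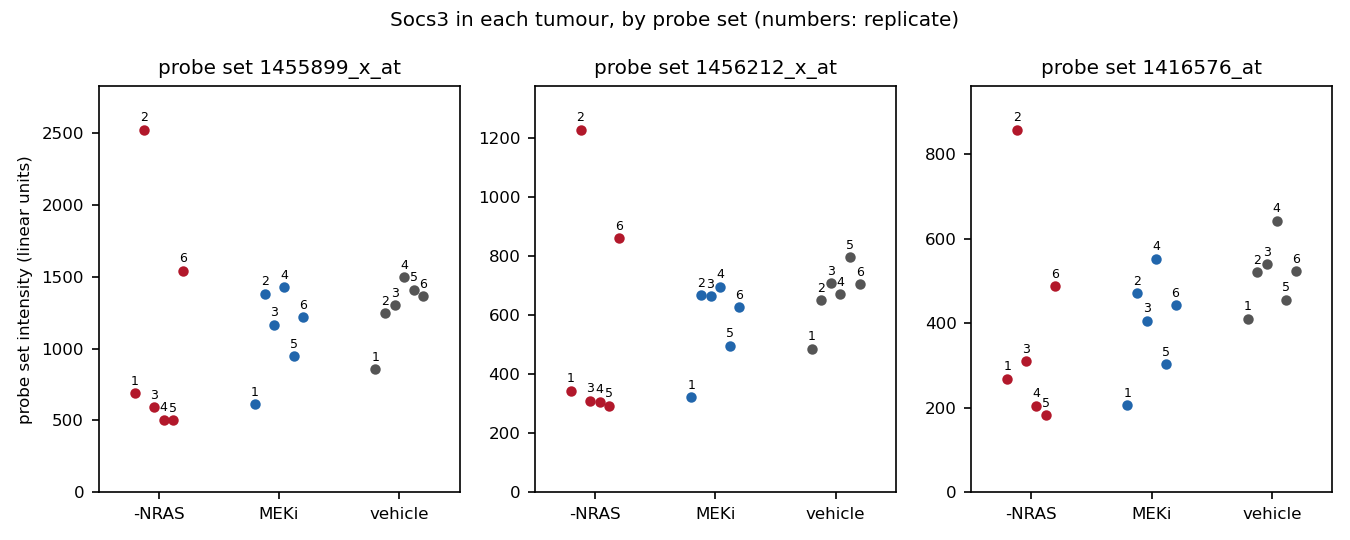
Socs3 intensity (linear units, axes from 0) in each tumour on its 3 probe sets, with replicate numbers, for -NRAS, MEKi and vehicle tumours. On each probe set -NRAS replicates 2 and 6 stand above the other 4 -NRAS tumours, which all lie below the lowest vehicle tumour.

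Genes of 3 ligands that start gp130 signalling were lower than in vehicle tumours in both the -NRAS and the MEKi group. Of 8 listed ligands of the IL-6 family, 6 were tested, and 3 fell in both -NRAS and MEKi tumours against vehicle. These were Lif (leukaemia inhibitory factor), Clcf1 (cardiotrophin-like cytokine) and Il11 (interleukin-11). Ctf1 (cardiotrophin) rose in both groups, and Osm (oncostatin M, the ligand of the Osmr protein) rose in -NRAS tumours. The list median was -0.74 and -1.01 against vehicle in -NRAS and MEKi tumours, beside 0.0036 and 0.0089 over all genes. Of all genes, 31.8% rose and 27.5% fell in -NRAS tumours, and 24.3% rose and 20.9% fell in MEKi tumours.

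Lif read 63.7, 86.0 and 115 in -NRAS tumours, 99.7, 219 and 335 in MEKi tumours, and 753, 865 and 982 in vehicle tumours. It fell by 3.07 ± 0.20 in -NRAS tumours (adjusted p = 2.47e-10, limma) and by 2.05 ± 0.20 in MEKi tumours (adjusted p = 1.59e-07), and was lower in -NRAS than in MEKi tumours by a log2 change of -1.03 ± 0.20 (adjusted p = 0.000318). Lif had the same order of groups as the MAPK output genes. Clcf1 read 85.6, 114 and 147 in -NRAS tumours, 114, 139 and 178 in MEKi tumours, and 550, 744 and 862 in vehicle tumours, with changes of -2.49 ± 0.12 and -2.23 ± 0.12 against vehicle. Il11 read 38.3, 43.5 and 53.4 in -NRAS tumours, 33.6, 41.3 and 48.4 in MEKi tumours, and 117, 217 and 263 in vehicle tumours, with changes of -1.82 ± 0.14 and -1.90 ± 0.14. None of the 12 tumours of these groups reached the vehicle range for any of the 3 ligands. Osm read 81.9, 91.9 and 138 in -NRAS tumours, 67.3, 70.8 and 96.4 in MEKi tumours, and 61.4, 74.0 and 79.4 in vehicle tumours, a rise of 0.34 ± 0.097 in -NRAS tumours (adjusted p = 0.00578, limma). Il6 read 31.9, 58.4 and 446 in -NRAS tumours, 17.7, 45.6 and 59.6 in MEKi tumours, and 26.8, 48.2 and 61.7 in vehicle tumours, and passed no test (0.78, adjusted p = 0.128, limma, in -NRAS minus vehicle). The 446 was -NRAS replicate 2, the tumour with the highest Socs3, and without it the Il6 change was 0.35 ± 0.31 (adjusted p = 0.353, limma). In -NRAS minus MEKi the Il6 change was 0.90 (adjusted p = 0.0961), which was 0.47 without replicate 2 and passed without -NRAS replicate 1 or 5.

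Of 7 tested receptor genes of the family beside Osmr, 3 rose in -NRAS tumours against vehicle (Lifr, Il6ra and Il6st), 1 fell (Lepr, the leptin receptor) and 3 passed no test. The last 3 were Cntfr, Il27ra and Il31ra, the receptor chains for ciliary neurotrophic factor, interleukin-27 and interleukin-31, with changes of 0.020, 0.15 and -0.15. The list median was 0.15, and 4 of 7 is near the 59.3% of all genes that changed. In MEKi tumours Lifr alone passed the test, with a rise, where 45.2% of all genes changed. Il6st, which encodes gp130, read 2384, 2596 and 2780 in -NRAS tumours, 1620, 2058 and 2269 in MEKi tumours, and 1453, 1794 and 2188 in vehicle tumours. It rose by 0.53 ± 0.098 in -NRAS tumours (adjusted p = 0.000122, limma), and in MEKi tumours its change was 0.13, with a 95% interval of -0.079 to 0.33. Lifr, the chain that binds LIF, rose by 1.04 ± 0.14 in -NRAS tumours (adjusted p = 4.34e-06) and by 0.62 ± 0.14 in MEKi tumours (adjusted p = 0.00155). Il6ra, the interleukin-6 receptor chain, rose by 0.94 ± 0.12 in -NRAS tumours (adjusted p = 1.79e-06, limma) and was at -0.0028 in MEKi tumours, with an interval of -0.26 to 0.25. The -NRAS minus MEKi difference passed for all of these, at 0.95 ± 0.12 for Il6ra, 0.42 ± 0.14 for Lifr and 0.40 ± 0.098 for Il6st, though for Lifr it was lost without -NRAS replicate 4 or 5 or MEKi replicate 2. Lepr fell by 1.20 ± 0.40 in -NRAS tumours (adjusted p = 0.0138) with a wide spread in the vehicle group, 297 to 1386.

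**Figure D5:**
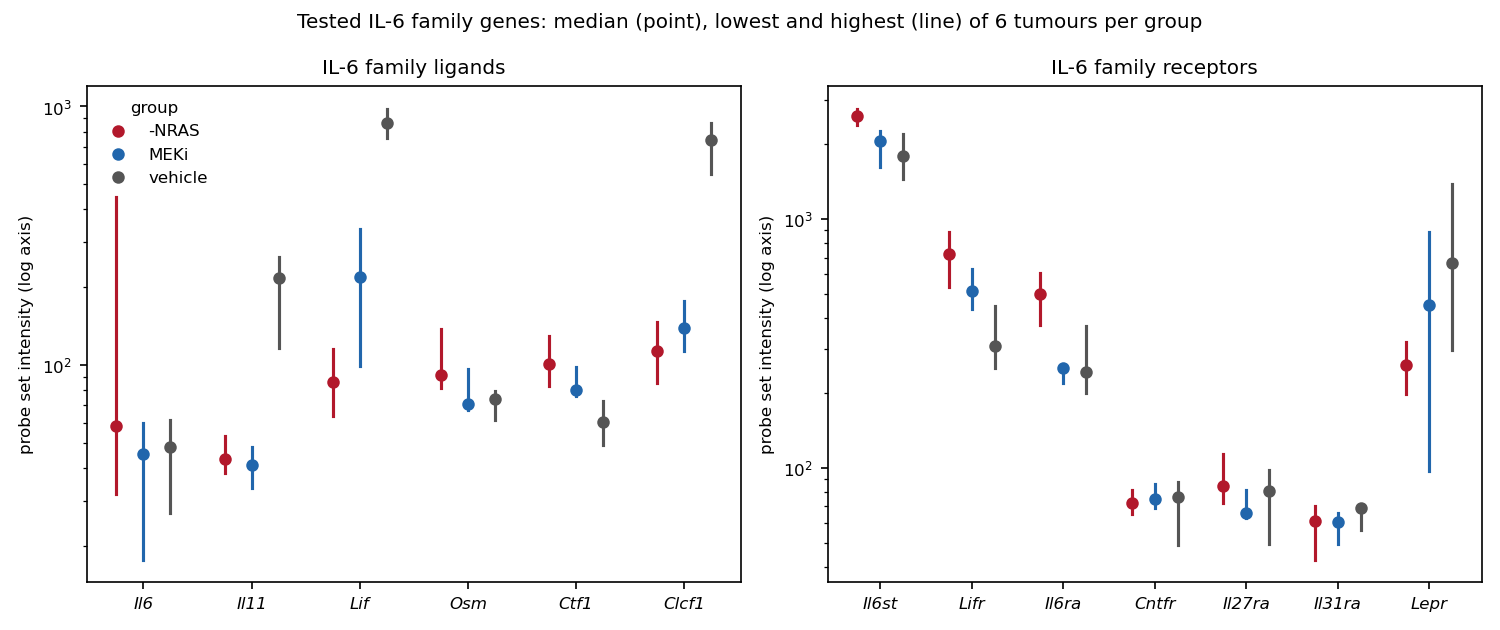
Tested IL-6 family ligands (left) and receptors (right) in -NRAS, MEKi and vehicle tumours, as the median (point) and the lowest and highest (line) of 6 tumours per group on a log axis of probe set intensity. Lif, Clcf1 and Il11 are low in -NRAS and MEKi tumours (medians 86.0 and 219 for Lif, against 865 in vehicle), and Il6st, Lifr and Il6ra are highest in -NRAS tumours; levels are comparable within a gene only.

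The other JAK and STAT genes rose where they changed. Of 5 tested, Stat2, Stat4, Stat6 and Tyk2 rose in -NRAS tumours against vehicle, where 31.8% of all genes rose. The list median was 0.35, and Jak3 was at 0.097 (adjusted p = 0.14, limma). The Stat4 rise of 0.41 (adjusted p = 0.0329) was lost without -NRAS replicate 3, 4 or 6 or vehicle replicate 2 or 3, and was 0.26 without -NRAS replicate 6. Stat2, a partner in the interferon response complex, read 104, 113 and 219 in -NRAS tumours, 41.5, 64.8 and 74.7 in MEKi tumours, and 45.9, 52.3 and 58.4 in vehicle tumours. It rose by 1.08 ± 0.14 (adjusted p = 1.52e-06, limma) in -NRAS tumours, with no overlap, and was 0.18 in MEKi tumours, with a 95% interval of -0.11 to 0.46. In MEKi tumours Tyk2 and Stat6 rose by 0.21 ± 0.055 and 0.14 ± 0.050, and leaving out MEKi replicate 1, 2 or 5 or vehicle replicate 1 or 4 left 1 of these calls.

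Of 14 other brakes on the route, 6 rose and 3 fell in each of the comparisons with vehicle, and the list medians were 0.074 and 0.065. Over all genes, 59.3% changed in -NRAS and 45.2% in MEKi tumours against vehicle. Between -NRAS and MEKi tumours, 7 brakes were higher and 3 lower (median 0.14), where 47.0% of all genes changed. Socs5, a member of the inhibitor family linked to interleukin-4 and epidermal growth factor receptor signalling, fell most, as Socs2 did. It read 1199, 1320 and 1443 in -NRAS tumours, 1602, 1713 and 1970 in MEKi tumours, and 3085, 3697 and 4198 in vehicle tumours, with no overlap between any groups. Socs5 fell by 1.45 ± 0.072 in -NRAS tumours (adjusted p = 5.71e-12, limma) and by 1.04 ± 0.072 in MEKi tumours (adjusted p = 1.64e-09). Socs6 rose by 0.34 and 0.23 (adjusted p = 0.00224 and 0.0362, limma), the second lost without MEKi replicate 5 or any vehicle replicate but the fifth, and Socs4 and Socs7, at 0.022 to 0.041 and 0.0030 to 0.090, passed no test. Sh2b3, the adaptor LNK that restrains JAK2, fell more in MEKi tumours (-0.91 ± 0.055) than in -NRAS tumours (-0.38 ± 0.055), and the -NRAS minus MEKi difference was 0.52 ± 0.055 (adjusted p = 2.45e-07, limma). Usp18, a brake induced by interferon, read 84.2, 124 and 201 in -NRAS tumours, 24.8, 40.8 and 55.3 in MEKi tumours, and 30.3, 38.3 and 54.7 in vehicle tumours. It rose by 1.34 ± 0.17 in -NRAS tumours (adjusted p = 1.62e-06, limma) and was 0.010 in MEKi tumours. Pias3, an inhibitor of STAT3, rose in both groups, by 0.76 ± 0.072 and 0.42 ± 0.072, and Ptpn6, the phosphatase SHP-1 of blood cells, rose in -NRAS tumours by 0.54 ± 0.097. Ptpn1, the phosphatase that acts on JAK2 and TYK2, fell in MEKi tumours by 0.48 ± 0.073.

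Receptors outside the IL-6 family split between the groups. Of 19 tested, 12 rose and 1 fell in -NRAS tumours against vehicle (median 0.46), where 31.8% of all genes rose and 27.5% fell. In MEKi tumours 0 rose and 8 fell by limma (median -0.15), where 24.3% and 20.9% of all genes did. At an unadjusted p under 0.05 the MEKi counts were 0 and 10. Compared directly, 18 were higher and 1 was lower in -NRAS than in MEKi tumours (median 0.58), where 24.3% and 22.7% of all genes were. Csf2rb, the shared chain of the GM-CSF and interleukin-3 receptors, read 1464, 1700 and 2212 in -NRAS tumours, 389, 516 and 673 in MEKi tumours, and 725, 933 and 1064 in vehicle tumours. It rose by 0.93 ± 0.13 in -NRAS tumours and fell by 0.77 ± 0.13 in MEKi tumours (adjusted p = 3.53e-06 and 6.71e-05, limma). Il7r, the interleukin-7 receptor chain, rose by 1.73 ± 0.21 in -NRAS tumours, and Csf2ra and Il10ra, receptor chains for GM-CSF and interleukin-10 on myeloid cells, rose by 1.20 ± 0.13 and 1.07 ± 0.12. Ghr, the growth hormone receptor that Socs2 restrains, read 2437, 2832 and 3098 in -NRAS tumours, 1374, 1435 and 1458 in MEKi tumours, and 1500, 2072 and 2486 in vehicle tumours. Its change was 0.53 ± 0.10 in -NRAS tumours (adjusted p = 0.000157, limma) and -0.43 ± 0.10 in MEKi tumours (adjusted p = 0.00151). Il4ra and Ifngr2, receptor chains for interleukin-4 and interferon gamma, had their highest medians in vehicle tumours. Il4ra changed by -0.63 ± 0.11 in MEKi tumours and by -0.19 in -NRAS tumours (adjusted p = 0.129, limma). Ifngr2 changed by -0.56 ± 0.092 in MEKi tumours and by -0.30 ± 0.092 in -NRAS tumours. The macrophage sums given with Osmr have the same order of groups as Csf2rb and Ghr, but not as Il4ra and Ifngr2. Il7r was at -0.060 in MEKi minus vehicle. The part of macrophages in these values was not tested.

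Of 17 other ligands, 5 were above the filter, and Il15 stood out. It read 84.5, 95.5 and 164 in -NRAS tumours, 32.1, 41.0 and 60.2 in MEKi tumours, and 27.7, 37.7 and 61.6 in vehicle tumours, and rose by 1.10 ± 0.16 in -NRAS tumours against vehicle (adjusted p = 7.53e-06, limma). Gh (growth hormone) fell by 0.24 ± 0.090 in -NRAS tumours against vehicle, and Tslp (thymic stromal lymphopoietin) was higher in -NRAS than in MEKi tumours by 0.27 ± 0.10. The last 2 calls were close to the threshold, and leaving out single tumours (-NRAS replicate 1 or vehicle replicate 2 or 3 for the first comparison, -NRAS replicate 1 or 4 or any MEKi replicate but the second for the other) reduced the count of calls to 1. No ligand of this list changed in MEKi tumours against vehicle by limma, and 0 of 5 did at an unadjusted p under 0.05.

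Genes known as STAT3 targets did not move as one. Of 15, 6 rose and 3 fell in -NRAS tumours against vehicle (median 0.31), where 31.8% of all genes rose and 27.5% fell. In MEKi tumours 0 rose and 6 fell (median -0.22), where 24.3% and 20.9% of all genes did. At an unadjusted p under 0.05 the MEKi counts were 1 and 6. The shares called in either direction were near the 59.3% and 45.2% of all genes that changed. Many genes of this list are also targets of other factors. Timp1, a protease inhibitor that also follows ERK activity, read 3498, 3963 and 5315 in -NRAS tumours, 4577, 7153 and 8092 in MEKi tumours, and 18172, 19107 and 21389 in vehicle tumours. It fell by 2.18 ± 0.13 and 1.52 ± 0.13, and Junb, an immediate early transcription factor, fell by 1.04 ± 0.15 and 1.16 ± 0.15 (-NRAS and MEKi, each against vehicle). Cebpd, a transcription factor of the acute phase response, read 2697, 3449 and 5017 in -NRAS tumours, 942, 1792 and 2128 in MEKi tumours, and 1294, 1602 and 1672 in vehicle tumours. It rose by 1.18 ± 0.18 in -NRAS tumours (adjusted p = 1.25e-05, limma) and was 0.038 in MEKi tumours. Icam1, an adhesion molecule, rose by 1.20 ± 0.13 in -NRAS tumours and fell by 0.44 ± 0.13 in MEKi tumours (adjusted p = 1.81e-07 and 0.00855, limma). Cebpb, a related factor, fell by 0.70 ± 0.089 in MEKi tumours and was 0.20 in -NRAS tumours (adjusted p = 0.0596), which passed without -NRAS replicate 1 or 3 or vehicle replicate 3. Lcn2, the iron-binding lipocalin 2, fell by 0.80 ± 0.24 in MEKi tumours (adjusted p = 0.01), and Steap4, a metal reductase, was 1.10 ± 0.17 higher in -NRAS than in MEKi tumours.

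Of 9 genes known as STAT5 targets, 5 rose and 2 fell in -NRAS tumours against vehicle, 2 rose and 2 fell in MEKi tumours, and the medians were 0.28 and -0.096. Over all genes, 59.3% and 45.2% changed in these comparisons. Ccnd1, the cyclin D1 gene and also an output of ERK, read 1537, 1838 and 2545 in -NRAS tumours, 6309, 8522 and 10106 in MEKi tumours, and 15273, 16722 and 17959 in vehicle tumours. It fell by 3.13 ± 0.13 and 1.05 ± 0.13, and Bcl2l1, which encodes the survival protein BCL-XL, fell by 1.26 ± 0.067 and 0.48 ± 0.067. Igf1, the growth factor gene that growth hormone induces through STAT5, read 6079, 9076 and 10368 in -NRAS tumours, 2611, 2958 and 3304 in MEKi tumours, and 1464, 2032 and 2530 in vehicle tumours. It rose by 2.10 ± 0.14 in -NRAS tumours (adjusted p = 3.31e-10, limma) and by 0.59 ± 0.14 in MEKi tumours (adjusted p = 0.00193), with no overlap between any groups. Ccnd2, the cyclin D2 gene, rose by 0.83 ± 0.15 in -NRAS tumours, and Pim2, a survival kinase, rose by 0.22 ± 0.074 in MEKi tumours, a call lost without MEKi replicate 1. Of 9 markers of fibroblasts, cells that make Igf1 in many tissues, 7 were higher in -NRAS than in vehicle tumours. The other 2, Pdgfra and Thy1, were lower. The marker sums were 177868 to 207928 in -NRAS tumours, 119328 to 126042 in MEKi tumours and 77767 to 95165 in vehicle tumours. Col1a2 and Col3a1 were the largest terms of these sums, with medians of 41932 and 42444 in -NRAS tumours. The part of fibroblasts in the Igf1 values was not tested.

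Nearest profiles over the 18 tumours were sought for the 4 members Socs2, Socs3, Cish and Osmr, by the root mean square difference of centred log2 values. The genes nearest to Socs2 were Dmrta1, Foxc1 and Serpinb8, at 0.23, 0.23 and 0.25, where the root mean square of Socs2 itself was 0.88. Those nearest to Osmr were Btk, Sting1 and Dram1, at 0.15, 0.15 and 0.17 against 0.47 for Osmr itself. For Cish they were Atf5, Slc1a5 and Susd1, at 0.17, 0.19 and 0.20 against 0.33. Socs3 had no close match, since Adamts4, Epgn and Sbno2 lay at 0.41, 0.42 and 0.42 against 0.62. These 18 tumours share their groups, so likeness here includes the group differences and carries no test.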

How the data were processed

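The authors deposited one table of probe set intensity values for the 18 one-colour Affymetrix arrays. The submitters' processing notes name MAS5 and RMA with no version, and do not tell by which of them the values were summarised. Values were all positive, with array medians near one another, and were read as linear intensities already on a common scale; on another scale the fold changes would differ. Per the labels' protocols, pieces of about 50 mg trimmed of skin were extracted with Trizol and 10 ug of total RNA were labelled.

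Precision is limited by how many arrays there are, 6 a group. The platform annotation, with newer symbols from RefSeq where they exist, named the probe sets; 34945 had 1 symbol, 932 several and 9160 none here. The probe set of highest mean log2(intensity + 16) stood for each gene, genes at or below the 25th percentile of probe set means (log2 5.30) were left out, and 15005 remained. A second fit took all 33777 probe sets above that value. limma 3.58.1 in R 4.3.3 fitted the 3 groups together, with 15 residual degrees of freedom, and Benjamini-Hochberg adjusted p under 0.05 was the threshold. On simulated data with 15005 genes, 62%, 96%, 96% and 98% of genes changed 1.25-fold, 1.5-fold, 2-fold and 4-fold were recovered for -NRAS minus vehicle, with 3 false calls. For -NRAS minus MEKi the shares were 62%, 90%, 96% and 98%, with 12 false calls. The simulation changed only a small share of the genes, in the -NRAS group alone, with independent normal noise. In the tumours 59.3% of genes were called in -NRAS minus vehicle and 47.0% in -NRAS minus MEKi. Whether the simulated shares and numbers of false calls hold for the fit to the tumours was not tested.

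The members and lists were chosen with earlier results of these data known. Named genes are all members, up to 4 genes per list and comparison with the largest change past the threshold, and the 3 nearest profiles; Jak3, Il6, Cntfr, Il27ra, Il31ra, Socs4, Socs6, Socs7, Ghr, Nkg7 and the pigment genes were named after their values were seen. A few listed genes have no probe set with a single symbol and were not analysed here. Cell type lists were melanocytic cells, fibroblasts, endothelial cells, macrophages, neutrophils, NK and lymphoid cells, keratinocytes, skeletal muscle and adipocytes. Alternatives were 2 other filters, 2 other probe set choices, quantile normalization or centring on array medians, a pseudocount of 1 or 64, array weights, a robust prior with a trend, only the 2 groups compared, a replicate block, an adjusted p under 0.01 and leaving out each tumour; list counts under these, and list genes and marker counts without single tumours, were added after seeing the data. The labels give no batch or date. Replicate numbers recur in each group, and the labels name no pairing. Deviations of same-numbered tumours correlated at -0.136 to 0.273, with 8 of 18 pairs over 0.1. Tumours with different numbers were not compared in this way, so these values cannot tell whether the numbers carry a pairing.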

Additional observations from a re-analysis of the deposited data

Results flagged for a closer look

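Of 30 groups of member values tested for a far sample, 2 held one, and chance alone gives such a sample in about 5% of groups. Jak1 in vehicle replicate 4 read 1545, where the next vehicle tumour read 1346, a gap of 0.724 of the whole range. It is the one vehicle tumour within the -NRAS range of Jak1, and without it the -NRAS minus vehicle change was 0.29 (limma, adjusted p = 3.84e-05; 3.84e-05 to 0.974 over the alternatives). Osmr in MEKi replicate 5 read 447.4, where the next MEKi tumour read 556.1, a gap of 0.715 of the range. Osmr stayed below the vehicle tumours in the other 5 MEKi tumours as well.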

How the results depend on the processing

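The 30 member changes were recomputed under 747 alternatives in all, of which 701 kept direction and call, 32 lost the call, 2 gained one and 12 changed sign. Of the 12, 3 involved a value past the test: with the most variable probe set of a gene, which takes another probe set, Jak1 was -0.0088 in -NRAS minus vehicle, and Jak2 was -0.26 and Stat3 0.38 in MEKi minus vehicle. The other 9 passed no test under either setting. Of these, the most variable probe set gave Jak2 -0.20 in -NRAS minus vehicle and Jak1 -0.28 in MEKi minus vehicle. The mean of all probe sets gave Jak2 -0.038 in -NRAS minus vehicle, and Jak1 -0.041, Jak2 -0.11 and Stat3 0.073 in MEKi minus vehicle. With single tumours left out, Jak2 in MEKi minus vehicle lay between -0.032 and 0.073, below zero in 3 cases (without MEKi replicate 1 or 3 or vehicle replicate 1). The number of members changed lay at 6 to 7, 5 to 6 and 5 to 6 of 10 in the 3 comparisons when single tumours were left out. It fell to 3 in -NRAS minus MEKi with the mean of all probe sets, in which dimmer probe sets of a gene take part. With that mean Stat5b was 0.085 and Socs2 -0.18 in this comparison, and neither passed. Which probe sets read a gene best was not tested. With the replicate block the members changed were 7, 6 and 6 and the probe sets 16, 12 and 9, and the block changed no other count of members by over 1.5 times; in the IL-6 ligand list it gave 5 calls in place of 3 in -NRAS minus MEKi. At an adjusted p under 0.01 the calls over all genes were 7399, 5155 and 5458. Of 675 list counts 641 were within 1.5 times the reported one, and without -NRAS replicate 2 all 18 were, as were all 18 without -NRAS replicate 6. No background signal was used here, so how far low probe sets lie above it was not analysed; the pseudocount shrinks differences most at low values.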
